A study of Homo sapiens with 4 samples.

Results

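The 10 melanocyte lineage genes SOX10, MITF, PAX3, TFAP2A, EDNRB, TYR, TYRP1, DCT, MLANA and PMEL were described in 2 cancer cell lines. Their rows were found by symbol, which gave 10 of the 61806 genes in the count table. RNA had been sequenced from MDA-MB-231, a line labelled breast cancer cells, and from MDA-MB-435, a line labelled melanoma cells. Both lines carried the genotype label WT. Each line was sequenced once as a control and once after CPYPP, an inhibitor of DOCK guanine nucleotide exchange factors, at a stated dose of 10 µM for 6 h. The control was labelled only as such, with no vehicle named. The growth and treatment notes name MDA-MB-435 for every sample, so the line was taken from the label of each sample. Every condition had a single library without a replicate, so the variation between cultures could not be estimated.

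Melanocytes are pigment cells that arise from the neural crest. PAX3, SOX10 and TFAP2A are transcription factors of the neural crest, and SOX10 together with PAX3 is known to activate MITF, the transcription factor that directs the melanocyte program. EDNRB, the endothelin receptor type B, is needed for the spread and survival of melanocyte precursors. MITF in turn is known to act on the genes of the pigment organelle, among them the enzymes TYR, TYRP1 and DCT, the fibril protein PMEL and the melanosome protein MLANA.

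MITF binds a sequence called the M-box, whose core is TCATGTG, in the promoters of the pigment enzymes. The 250 bases before the RefSeq transcription start of TYR, TYRP1 and DCT are shown because all 3 hold this core. The reads of these genes differed widely in the melanoma line, and a link to the core was not tested. The bases are given 5′ to 3′ on the gene's own strand, build GRCh38.p14, with each match to TCATGTG on either strand in capitals. TYR lies on the plus strand (chr11:89177625-89177874), TYRP1 on the plus strand (chr9:12693135-12693384) and DCT on the minus strand (chr13:94479683-94479932).
TYR: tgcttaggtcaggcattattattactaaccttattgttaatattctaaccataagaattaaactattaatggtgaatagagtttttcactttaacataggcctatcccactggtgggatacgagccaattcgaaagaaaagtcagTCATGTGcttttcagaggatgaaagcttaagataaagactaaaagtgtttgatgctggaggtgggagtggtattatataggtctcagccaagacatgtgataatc
TYRP1: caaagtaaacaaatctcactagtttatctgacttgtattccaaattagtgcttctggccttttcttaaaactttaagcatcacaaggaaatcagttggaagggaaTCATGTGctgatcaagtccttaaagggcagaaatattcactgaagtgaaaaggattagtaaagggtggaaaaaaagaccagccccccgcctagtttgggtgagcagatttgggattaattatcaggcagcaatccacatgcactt
DCT: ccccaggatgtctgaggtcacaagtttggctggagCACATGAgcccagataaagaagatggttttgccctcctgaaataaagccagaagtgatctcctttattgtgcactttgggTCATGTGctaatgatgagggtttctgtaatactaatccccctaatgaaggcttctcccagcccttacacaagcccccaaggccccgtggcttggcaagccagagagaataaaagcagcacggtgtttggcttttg

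The core starts 105 bases before the start of TYR, 145 before that of TYRP1 and 135 before that of DCT. DCT holds a further match on the other strand, printed as CACATGA, whose far end lies 215 bases before the start. RefSeq gave at least 1 window for 8 of the 10 genes, with SOX10 and PMEL not among them, and no window of MITF, PAX3, TFAP2A, EDNRB or MLANA held the core. Of 35116 windows of this length over all genes, 886 (2.52%) held TCATGTG on either strand, and 3307 (9.42%) held the shorter CATGTG, which is part of it. The RefSeq start of TYRP1 lies 7946 bases after the start in the deposited table. A match describes the letters of the window only. MITF has 3 RefSeq windows, whose starts lie 8, 24355 and 197136 bases after the deposited start of the gene, and the deposited count adds up reads from all of its transcripts.

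Reads counted on genes numbered 22359735 in the control and 17196385 in the treated MDA-MB-231 library, and 22663954 and 19489282 for MDA-MB-435. A count of 3 corresponded to between 0.132 and 0.174 CPM (counts scaled to a fixed total per library). Levels that are compared between genes are given as TPM (transcripts scaled to a fixed total), computed from the counts and the deposited exon length. The summed TPM of 15 epithelial and breast markers was 2116 and 1954 in MDA-MB-231 against 506 and 425 in MDA-MB-435, where KRT18 took the most and CDH1 was at 0 counts in both libraries. EPCAM had 387 and 287 counts in MDA-MB-231 against 2 and 0 in MDA-MB-435. The list did not go in a single direction. By the exact binomial test and thresholds given below, 8 of the 13 tested between the control libraries were lower in MDA-MB-435 and 3 higher. Over all genes tested 20.9% were lower and 22.2% higher. At least 10 counts were held by 10 of the 15 markers in the MDA-MB-231 control and by 9 in the MDA-MB-435 control. Markers of blood cells summed to at most 2.38 TPM and those of fibroblasts and endothelial cells to at most 12.1 TPM in any library. The summed TPM of the 10 melanocyte lineage genes was 50.1 and 33.5 in MDA-MB-231 against 235 and 162 in MDA-MB-435.

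The melanoma line carried only part of the melanocyte program. In its control library 6 of the 10 genes were above 10 TPM and 4 were below 1 TPM, against a median of 3.25 TPM over the genes with at least 1 count. The 6 genes were the transcription factors SOX10, MITF, PAX3 and TFAP2A, the receptor EDNRB and the pigment enzyme DCT. The 4 low genes, TYR, TYRP1, MLANA and PMEL, are defining products of pigmented melanocytes. Of the higher 6, MITF and TFAP2A differed by less than 2-fold between the control libraries of the lines. Among the 10 genes the labelled cell type thus rests on SOX10, PAX3, EDNRB and DCT. EDNRB was also read in the breast cancer line, with 70 and 81 counts. In MDA-MB-231 the only gene above 10 TPM was MITF.

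**Figure D1:**
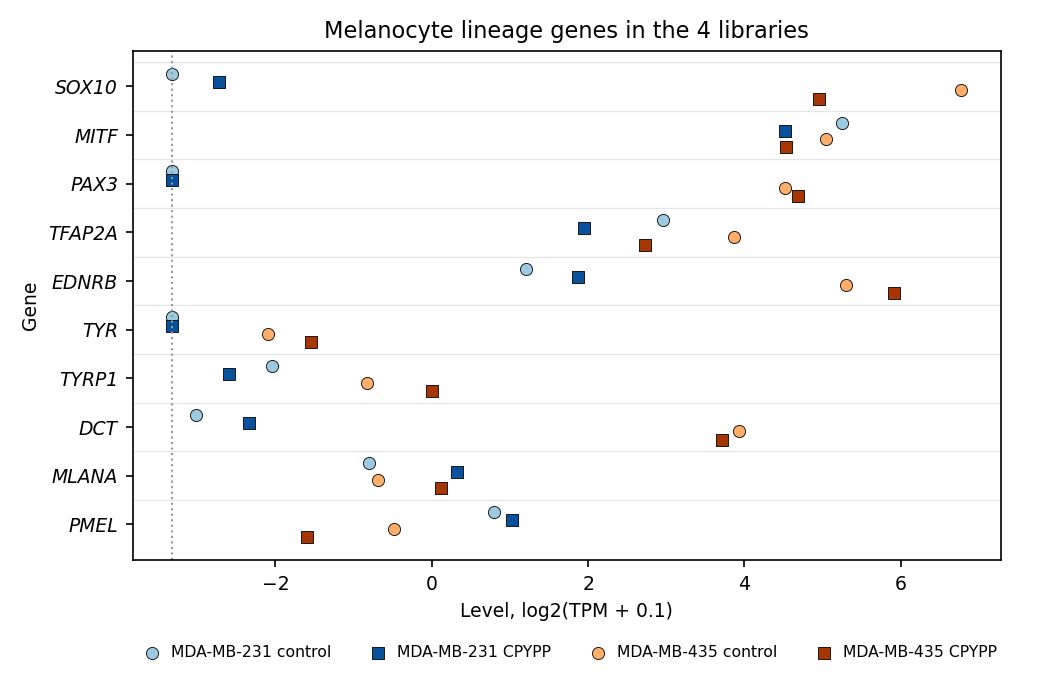
Level of each of the 10 genes in the 4 libraries as log2 of TPM plus 0.1, with circles for control and squares for CPYPP. The dotted line marks a count of 0. SOX10, PAX3 and DCT stood far to the right in both MDA-MB-435 libraries, while MITF lay close together in all 4.

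SOX10 (ENSG00000100146, chr22:37970686-37987422, minus strand), the neural crest factor that maintains the melanocyte lineage, had 0 counts in untreated MDA-MB-231 cells, 1 after CPYPP, 3031 in untreated MDA-MB-435 cells and 707 after CPYPP. Its level in MDA-MB-435 was 109 TPM in the control library, above 93.8% of detected genes, and 30.9 TPM after CPYPP, above 77.4%. Both MDA-MB-435 libraries lay far above both MDA-MB-231 libraries, and the CPYPP library lay well below its control.

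MITF (ENSG00000187098, chr3:69739456-69968336, plus strand) had 1585 counts in untreated and 690 in treated MDA-MB-231 cells, and 1405 and 809 in MDA-MB-435. On the TPM scale these levels were 37.9, 22.9, 32.9 and 23.0. The levels of the lines overlapped, and in both lines the CPYPP library was the lower. The gene is not particular to melanocytes, since several of its transcript forms are known to be used in other tissues, and gene counts do not separate the forms. The annotation gives it 18 transcripts from 15 starts.

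PAX3 (ENSG00000135903, chr2:222199887-222298998, minus strand), a paired-box factor of the neural crest, had 0 counts in both MDA-MB-231 libraries and 1040 untreated and 965 treated in MDA-MB-435, or 22.7 and 25.6 TPM. TFAP2A (ENSG00000137203, chr6:10393186-10419659, minus strand), an AP-2 factor used by both neural crest and epithelial cells, had 355 and 125 counts in MDA-MB-231 against 686 and 254 in MDA-MB-435. Its level was 7.66 and 3.74 TPM in MDA-MB-231 and 14.5 and 6.52 TPM in MDA-MB-435, so that the MDA-MB-435 library with CPYPP lay below the MDA-MB-231 control.

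EDNRB (ENSG00000136160, chr13:77895481-77975529, minus strand) had 70 and 81 counts in MDA-MB-231 against 1263 and 1606 in MDA-MB-435, or 2.21, 3.56, 39.1 and 60.4 TPM. It was the highest of the 10 genes in the MDA-MB-435 library with CPYPP, where SOX10 had been the highest in the control. The groups by line did not overlap.

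Among the pigment enzymes, DCT (ENSG00000080166, chr13:94436811-94479682, minus strand), which converts dopachrome in the eumelanin pathway, had 1 and 3 counts in MDA-MB-231 against 658 and 464 in MDA-MB-435. Its MDA-MB-435 levels were 15.2 and 13 TPM. TYR (ENSG00000077498, chr11:89177875-89295759, plus strand), tyrosinase, the rate-limiting enzyme of melanin synthesis, had 0 counts in both MDA-MB-231 libraries and 2 and 3 in MDA-MB-435. TYRP1 (ENSG00000107165, chr9:12685439-12710285, plus strand), the tyrosinase-related protein, had 3 and 1 counts in MDA-MB-231 against 10 and 16 in MDA-MB-435, or at most 0.903 TPM. DCT was thus read at a level that TYR and TYRP1 did not approach in the same libraries. The promoter windows of all 3 hold the M-box core, and whether it bears on these levels was not tested.

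PMEL (ENSG00000185664, chr12:55954105-55973317, minus strand), whose protein forms the fibrils on which melanin is laid down, had 34 and 29 counts in MDA-MB-231 against 13 and 4 in MDA-MB-435. MLANA (ENSG00000120215, chr9:5890889-5910606, plus strand), a melanosome protein used as a diagnostic marker of melanoma, had 8 and 14 counts in MDA-MB-231 against 9 and 14 in MDA-MB-435. Neither gene reached 2 TPM in any library, and in the control libraries PMEL was the lower in the melanoma line while MLANA differed by 1 count. A count of 0 here allows up to 3 counts, and no gene at that level can be told from one that is not transcribed.

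In the MDA-MB-435 control library the order of levels per length was SOX10, EDNRB, MITF, PAX3, DCT, TFAP2A, PMEL, MLANA, TYRP1 and TYR. Neighbours in that order had no replicate by which their spread could be judged. The sum of reads is over bulk cells, so fewer cells that express a gene and less RNA per cell cannot be told apart.

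The first comparison set the control library of MDA-MB-435 against that of MDA-MB-231. The test was edgeR's two-sided exact binomial test on the reads of the 2 libraries, with Benjamini-Hochberg adjustment over all genes tested, and a gene was taken as past the thresholds at an adjusted p under 0.05 and a fold change over 2. Such a test compares the libraries and covers counting error only, as do the 95% Clopper-Pearson intervals given with a fold change. Of the 10 genes 8 had at least 10 counts in either library, and 4 of these were higher and 1 was lower in MDA-MB-435. Over all 18269 genes tested, 22.2% were higher and 20.9% lower, so that differences between these lines were common.

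SOX10 was at least 943-fold higher in MDA-MB-435 when 3 counts were put in place of its 0, with a lower limit of 322, and PAX3 at least 323-fold higher, with a lower limit of 110. DCT was 614-fold higher (110 to 24285), a ratio that rests on 1 count in MDA-MB-231. With that count raised to 3, as was done for the call, the log2 difference of DCT was 7.68. EDNRB was 16.8-fold higher (13.2 to 21.7). PMEL was the only one past the thresholds in the other direction, 2.80-fold lower (1.44 to 5.79, adjusted p = 0.00163 by the exact binomial test). TFAP2A was 1.8-fold higher (1.58 to 2.06) and MITF 1.21-fold lower (1.12 to 1.3), neither of them past the fold threshold. TYRP1 had a ratio of 3.11 (0.801 to 17.6, adjusted p = 0.113 by the exact binomial test) and MLANA, which was not tested, of 1.05 (0.359 to 3.13).

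A second comparison of the lines used all 4 libraries, with the treatment as a term and the control and CPYPP libraries of a line as its only repeats. By edgeR's quasi-likelihood test, which had 1 residual degree of freedom, 8 of the 10 genes were tested. SOX10 (adjusted p = 4.93e-09), PAX3 (1.38e-08), EDNRB (1.34e-08), DCT (4.79e-08) and TFAP2A (0.00184) were higher in MDA-MB-435 by edgeR's test, where 30.5% of all 16801 genes tested were higher and 32.4% lower. The log2 difference was 4.08 for EDNRB, 7.90 for DCT and 0.84 for TFAP2A. PMEL was lower with a log2 difference of -2.09 (adjusted p = 0.0106 by edgeR's quasi-likelihood test). Without the treatment term TFAP2A no longer passed (edgeR adjusted p = 0.209), and with DESeq2 PMEL no longer did (DESeq2 adjusted p = 0.13). SOX10 had an adjusted p of 0.000969 by edgeR's quasi-likelihood test without that term. No library repeats a condition, so these values do not measure the spread between cultures. MITF had a log2 difference of -0.13 (edgeR adjusted p = 0.423) and MLANA of -0.09 (0.910).

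The main question was how the 10 genes changed with CPYPP in MDA-MB-435. SOX10 and TFAP2A fell. After scaling, EDNRB and PAX3 were higher and MITF lower without passing the fold threshold, and DCT differed little. The unscaled count of PAX3 was 1040 in the control and 965 after CPYPP. Of the 10 genes 9 had enough reads to be tested, and 2 were lower, 0 higher and 7 not past the thresholds. Over all 16527 genes tested, 6.52% were lower and 3.17% were higher. The median log2 fold change of the 9 genes was -0.14, against -0.02 over all genes tested.

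SOX10 fell by 1.73 on the log2 scale, or 3.32-fold (3.06 to 3.61, adjusted p = 1.26e-222 by edgeR's exact binomial test), and 2.78% of all genes tested had a lower fold change. TFAP2A fell by 1.07 on the log2 scale, or 2.09-fold (1.81 to 2.43, adjusted p = 7.83e-25 by the exact binomial test). The interval of TFAP2A reached below the fold threshold of 2, while that of SOX10 did not.

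MITF was 1.35-fold lower (1.23 to 1.47, adjusted p = 6.27e-11 by the exact binomial test), so that its reads differed but by less than 2-fold. PAX3 was 1.2-fold higher (1.09 to 1.31, adjusted p = 0.000221 by the same exact test). EDNRB was 1.64-fold higher (1.52 to 1.77, adjusted p = 1.56e-38 by the exact binomial test). With TMM factors these 3 genes differed between the libraries beyond counting error, with intervals that lay wholly inside a 2-fold change. Total counts shift the log2 values by -0.15, and the interval of PAX3 then includes no change.

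DCT was 1.10-fold lower (0.975 to 1.24, adjusted p = 0.186 by the exact binomial test), an interval that excludes a change of 2-fold in either direction between these libraries. The low pigment genes gave wide intervals. TYRP1 had a ratio of CPYPP to control of 2.06 (0.880 to 5.09, adjusted p = 0.129 by the exact binomial test) and MLANA of 2.01 (0.809 to 5.25, 0.214 by the same exact test). PMEL was 2.52-fold lower (0.779 to 10.6, adjusted p = 0.215 by the exact binomial test). For TYR, with 2 and 3 counts, no difference was detectable at this depth.

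**Figure D2:**
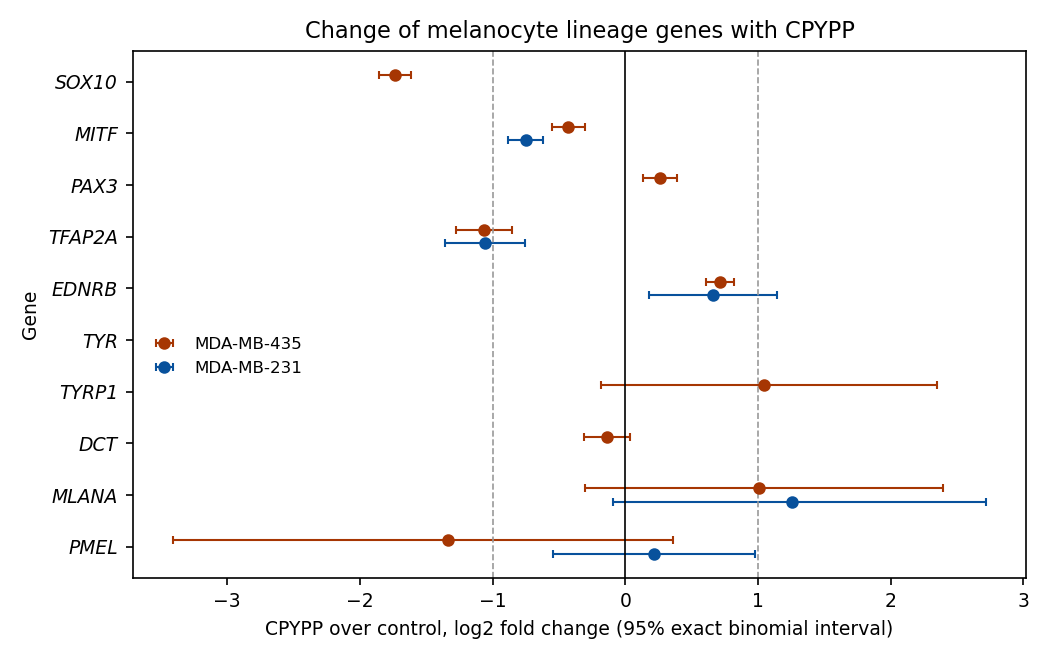
Log2 fold change of CPYPP over control for each gene with at least 10 counts in either library of the line, with 95% exact binomial intervals for counting error, in MDA-MB-435 (red) and MDA-MB-231 (blue). Dashed lines mark a 2-fold change. The interval of SOX10 lay wholly beyond 2-fold, those of TFAP2A crossed it and those of the low pigment genes crossed 0.

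The size of a change depends on how the libraries are scaled. With total counts in place of edgeR's TMM factors, the median log2 fold change of all genes in MDA-MB-435 shifted by -0.15, and with upper quartile factors by -0.11. The genes past the thresholds then numbered 370 higher and 1487 lower with total counts and 403 and 1365 with upper quartile factors, against 524 and 1078 with TMM. Over 5 scalings the log2 fold change ran from -1.88 to -1.72 for SOX10, from -1.22 to -1.05 for TFAP2A, from -0.58 to -0.42 for MITF and from -0.29 to -0.12 for DCT. PAX3 ran from 0.11 to 0.27 and EDNRB from 0.56 to 0.73. None of these 6 genes changed its direction under the 5 scalings.

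An assumed biological coefficient of variation takes the place of the replicates that were not made. At a value of 0.2, SOX10 was past the thresholds (adjusted p = 0.00665 by edgeR's exact test) and TFAP2A was not (0.245). At a value of 0.4 neither was, with an adjusted p of 1 by edgeR's exact test for SOX10.

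In MDA-MB-231, the line in which SOX10 and PAX3 were not detected beyond 1 count, 5 of the 10 genes could be tested, and 1 was lower and 0 higher. Over all 16441 genes tested, 3.09% were lower and 4.22% higher. TFAP2A fell by 1.06 on the log2 scale, or 2.08-fold (1.69 to 2.57, adjusted p = 1.65e-12 by the exact binomial test), beside 2.09-fold in MDA-MB-435. MITF was 1.68-fold lower (1.54 to 1.84, adjusted p = 2.01e-30 by the exact binomial test), beside 1.35-fold in MDA-MB-435. EDNRB was 1.58-fold higher (1.13 to 2.21, adjusted p = 0.0137 by the exact binomial test), beside 1.64-fold. The MDA-MB-231 fall of TFAP2A was not past the thresholds with an assumed coefficient of variation of 0.2 (adjusted p = 0.406 by edgeR's exact test).

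MLANA had a ratio of 2.39 in MDA-MB-231 (0.935 to 6.57) and PMEL of 1.16 (0.684 to 1.97), neither past the thresholds. MITF, TFAP2A and EDNRB, the 3 members with the most counts in MDA-MB-231, thus lay on the same side of 0 in both lines. Whether their changes differed between the lines was not tested. A common change was also fitted over all 4 libraries with the line as a block, by edgeR's quasi-likelihood test with 1 residual degree of freedom, an analysis added after the data had been seen. At an adjusted p under 0.05 alone, 4.39% of 16801 genes were higher and 2.85% lower after CPYPP. TFAP2A was lower by this test (log2 -1.11, edgeR adjusted p = 0.00466), as was MITF (log2 -0.63, adjusted p = 0.0198), and EDNRB was higher (log2 0.64, adjusted p = 0.0345). The fit gave a log2 value of -1.77 for SOX10, 0.18 for PAX3 and -0.13 for DCT. With at most 3 counts of each in either MDA-MB-231 library, that line gave no repeat of their changes. For these 3 genes the fit is no test beyond the MDA-MB-435 pair.

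Some of the reads may belong to neighbours, since the strand setting of the counting is not given in the sources used here. SOX10 lies wholly inside POLR2F, an RNA polymerase subunit gene on the opposite strand, over 16737 bases. POLR2F had 700 and 489 counts in MDA-MB-231 against 2321 and 2023 in MDA-MB-435. It was 1.12-fold higher after CPYPP in MDA-MB-435 (1.06 to 1.19), while SOX10 fell, and its 700 counts in untreated MDA-MB-231 cells stood beside 0 counts of SOX10.

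TFAP2A overlaps the antisense genes TFAP2A-AS1 and TFAP2A-AS2, which held at most 54 counts in any library. TFAP2A-AS2 had 54 and 13 counts in MDA-MB-231, 3.04-fold lower (1.64 to 6.08), and 26 and 8 in MDA-MB-435, 2.52-fold lower (1.11 to 6.44), and was past the thresholds in both lines, as TFAP2A was. In MDA-MB-435 TFAP2A-AS2 no longer passed when every gene with a count was tested. EDNRB shares 36514 bases with ENSG00000233379, a gene on the same strand, which had 0 counts in both MDA-MB-231 libraries and 207 and 200 in MDA-MB-435. PMEL overlaps CDK2 on the other strand, which had 1243 and 1048 counts in MDA-MB-435, and MLANA lies inside KIAA2026, which had 565 and 654. TYRP1 overlaps LURAP1L-AS1, which had 3 and 26 counts in MDA-MB-231 against 67 and 89 in MDA-MB-435. CCDC140, beside the start of PAX3, had 27 and 15 counts in MDA-MB-435 and 0 in MDA-MB-231. The part of these neighbours in the counts of the low pigment genes was not tested.

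Among other regulators of the neural crest and of melanocytes, 4 fell. Of 20 listed genes 16 were tested in MDA-MB-435, and 4 were lower and 0 higher, with a median log2 fold change of -0.20, beside 6.52% lower and 3.17% higher over all genes tested. The list is small, and whether its share differed from that of other genes was not tested. POU3F2, a POU-domain factor known from neural and melanoma cells, went from 174 to 11 counts and fell 12.3-fold (6.69 to 25). FOXD3, a forkhead factor of the early neural crest, went from 148 to 18 counts and fell 6.38-fold (3.90 to 11.1). TFAP2C, a relative of TFAP2A, went from 3549 to 963 counts and fell 2.86-fold (2.66 to 3.07). IRF4, an interferon regulatory factor that acts with MITF on TYR, went from 102 to 28 counts and fell 2.82-fold (1.84 to 4.46). With an assumed coefficient of variation of 0.2, POU3F2 (adjusted p = 2.21e-07), FOXD3 (0.000208) and TFAP2C (0.0286) were past the thresholds by edgeR's exact test and IRF4 (0.132) was not.

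These 4 regulators were read mainly in the melanoma line. In MDA-MB-231 the control and CPYPP libraries held 8 and 9 counts of POU3F2, 3 and 2 of FOXD3, 0 and 0 of IRF4 and 242 and 111 of TFAP2C. The regulators with the highest level per length in the MDA-MB-435 control library were ETS1 with 208 TPM, TFAP2C with 205 and TFE3 with 126. ETS1 had a ratio of 0.943 after CPYPP (0.913 to 0.975) and TFE3, an MITF relative, of 1.22 (1.16 to 1.29). In MDA-MB-231, 13 of the regulators were tested, with 3 higher, TFEB, TFEC and ALX4, and 0 lower. Over all genes tested in this line 4.22% were higher and 3.09% lower. With an assumed coefficient of variation of 0.2 none of the 3 passed by edgeR's exact test. The adjusted p by that test was 0.478 for TFEB, 0.110 for TFEC and 0.612 for ALX4. ALX4 also no longer passed when every gene with a count was tested. SOX9, a SOX factor of the early neural crest and of cartilage, had 1819 and 691 counts in MDA-MB-231 and 0 in both MDA-MB-435 libraries.

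Of 12 melanocyte receptors and ligands 7 were tested in MDA-MB-435, with 1 lower and 0 higher and a median log2 fold change of -0.10. Over all genes tested 6.52% were lower and 3.17% higher, and whether the share of so small a list differed was not tested. The gene past the thresholds was EDN1, which encodes endothelin-1, a ligand of EDNRB, with 50 counts in the control and 16 after CPYPP, 2.42-fold lower (1.36 to 4.56). In MDA-MB-231 EDN1 had 659 and 925 counts, a ratio of 1.92 (1.73 to 2.12). KIT, the receptor for stem cell factor on normal melanocytes, had 1 count in untreated MDA-MB-231 cells and 0 elsewhere. Its ligand KITLG had 956 and 1484 counts in MDA-MB-231, where it was 2.12-fold higher (1.95 to 2.30). KITLG did not pass there with an assumed coefficient of variation of 0.2 (adjusted p = 0.302 by edgeR's exact test). Its log2 fold change in MDA-MB-435 was 0.97, under the fold threshold. The highest of the list in the MDA-MB-435 control library were MET with 253 TPM, GPR143 with 42.9 and ERBB3 with 21.5.

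Genes of the melanosome and of pigment transport came next. Of 32 listed 29 were tested in MDA-MB-435, with 1 higher and 0 lower and a median log2 fold change of 0.02, and the 1 higher gene is near the 3.17% over all genes tested. BLOC1S2, a subunit of a complex that sorts cargo to the melanosome and to lysosomes of all cells, went from 565 to 1130 counts and was 2.58-fold higher (2.33 to 2.86). CD63 (508 TPM), GPNMB (133 TPM) and MLPH (115 TPM) were the highest in the MDA-MB-435 control library. GPNMB, a glycoprotein of the melanosome, had 4507 and 3542 counts there, a ratio of 1.01 (0.969 to 1.06), against 32 and 44 in MDA-MB-231. MLPH, which links melanosomes to a myosin motor, had a ratio of 0.628 (0.598 to 0.659). In MDA-MB-231 0 of 28 tested genes of this list were past the thresholds by the exact binomial test. The shares over all genes tested in this line were 4.22% higher and 3.09% lower, and a difference from them was not tested. Between the control libraries 12 of 29 were higher in MDA-MB-435 and 0 lower, beside 22.2% higher and 20.9% lower over all genes tested.

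Of 16 further genes known as MITF targets 14 were tested in MDA-MB-435, with 1 higher and 1 lower and a median log2 fold change of 0.005. The shares over all genes tested were 3.17% higher and 6.52% lower. CTSK, a cathepsin, had 48 and 76 counts and was 2.04-fold higher (1.40 to 2.99), and in MDA-MB-231 it had 64 and 127 counts and was 2.71-fold higher (1.99 to 3.72). With total counts, upper quartile factors or TMM over all 4 libraries, CTSK in MDA-MB-435 lay under the fold threshold. LZTS1 had 988 and 357 counts in MDA-MB-435, 2.15-fold lower (1.9 to 2.43), and 27 and 5 in MDA-MB-231, 3.96-fold lower (1.5 to 13.2). APEX1 (298 TPM), HIF1A (143 TPM) and DIAPH1 (126 TPM) were the highest of the list and had ratios of 0.972, 1.25 and 1.03 in MDA-MB-435.

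Genes of the neural crest and glia that are linked to SOX10 were read at high levels in the melanoma line. With TMM factors they did not pass the thresholds. Of 15 listed 13 were tested in MDA-MB-435, with 0 higher and 0 lower by the exact binomial test. The shares over all genes tested were 3.17% higher and 6.52% lower, and whether so small a list differed was not tested. The median log2 fold change of the list was -0.16, and 11 of the 13 lay below 0, beside 51.4% of all genes tested. MCAM (109 TPM) and S100B (101 TPM) had the highest levels in the control library. S100B, a calcium-binding protein of glia and melanocytes, had 1055 and 761 counts, a ratio of 0.930 (0.846 to 1.02). ERBB3, a receptor that is in this list and in that of receptors, had 1451 and 584 counts, a ratio of 0.519 (0.471 to 0.572). Thus within the 6 h of CPYPP and with TMM factors, SOX10 was 3.32-fold lower and S100B and ERBB3 were each less than 2-fold lower. The interval of ERBB3 reached past 2-fold. Total counts shift the log2 values of this line by -0.15 and upper quartile factors by -0.11. Either shift takes ERBB3 itself past 2-fold. Over the 13 tested genes the log2 fold change ran from -1.01 to 0.14. The lowest of them was thus past 2-fold but not past the adjusted p threshold.

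Of 15 genes known to be high in melanomas with little MITF, 13 were tested in MDA-MB-435, with 0 higher and 2 lower and a median log2 fold change of -0.42. Over all genes tested 3.17% were higher and 6.52% lower, and whether the share of the list differed was not tested. The 2 were POU3F2, given above, and CCN2, a matricellular protein, with 1001 and 296 counts, 2.62-fold lower. In MDA-MB-231 the counts of CCN2 were 4043 and 10575, and it was higher. FOSL1 (1015 TPM), TNC (957 TPM) and AXL (428 TPM) were the highest in the MDA-MB-435 control library, and AXL, a receptor tyrosine kinase, had a ratio of 0.767 (0.745 to 0.789). Of 8 noncoding and antisense neighbours of the 10 genes 5 were tested, with 0 higher and 1 lower, TFAP2A-AS2, beside the same shares over all genes.

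**Figure D3:**
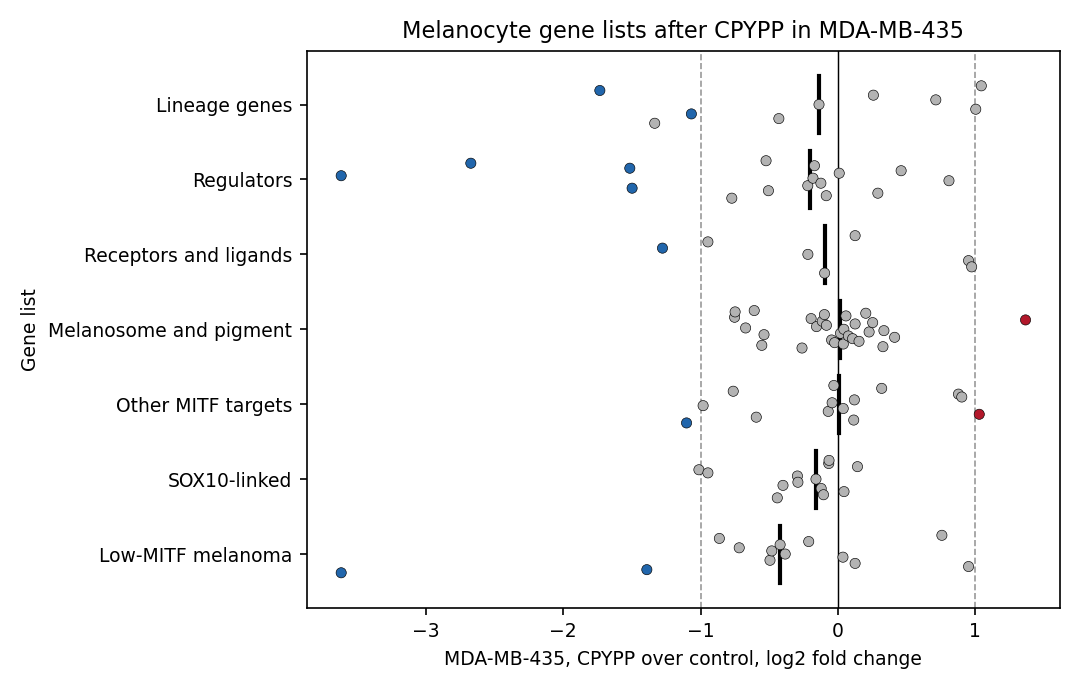
Log2 fold change of CPYPP over control in MDA-MB-435 for each tested gene of the 10 lineage genes and of 6 wider lists, with blue for lower, red for higher and grey for not past the thresholds. The thick bars are the list medians and dashed lines a 2-fold change. The points farthest to the left were POU3F2 and FOXD3, and POU3F2 stands in 2 lists.

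The genes most like SOX10 in their pattern over the 4 libraries came from outside the lists. Likeness was measured as the Euclidean distance over the 4 libraries between log2 values (TMM CPM plus 0.5) after each gene's mean was subtracted, among 11113 genes with at least 100 counts in the MDA-MB-435 control library. The nearest was ENSG00000272405, an antisense gene with 3 and 3 counts in MDA-MB-231 against 2275 and 981 in MDA-MB-435 (distance 0.685). TM4SF18, a tetraspan membrane protein gene, had 1, 0, 1754 and 790 counts (distance 0.756), and PADI3, a peptidyl arginine deiminase gene, had 0, 1, 1674 and 813 (distance 0.812). They were followed by the noncoding LINC01694 with 0, 0, 1425 and 641 counts and LINC02915 with 3, 2, 2043 and 451. The Pearson r of these 5 genes with SOX10 lay between 0.995 and 0.999 over 4 libraries, which chiefly reflect the line. Among the lineage genes PAX3 stood at place 47, DCT at 86, EDNRB at 288, TFAP2A at 2346 and MITF at 6488.

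SOX10, DCT and PAX3 were also set beside all genes that were read in the melanoma line and not in the other. There were 214 genes with 3 counts or fewer in both MDA-MB-231 libraries and at least 100 in the MDA-MB-435 control library. Of these 31 (14.5%) were lower after CPYPP and 2 higher, with a median log2 fold change of -0.24 and quartiles of -0.67 and 0.06. The share lower over all genes tested was 6.52%, but the minimum was set on the control library, which favours genes that are lower after CPYPP. With a mean of at least 100 counts over both MDA-MB-435 libraries instead, a choice made after the data had been seen, 181 genes remained, of which 16 (8.84%) were lower and 4 higher. Ranked from the lowest fold change, SOX10 was 12 of 214, DCT 128 and PAX3 189, or 7, 98 and 154 of 181 by the mean. These ranks are a description of a class chosen on the same reads.

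**Figure D4:**
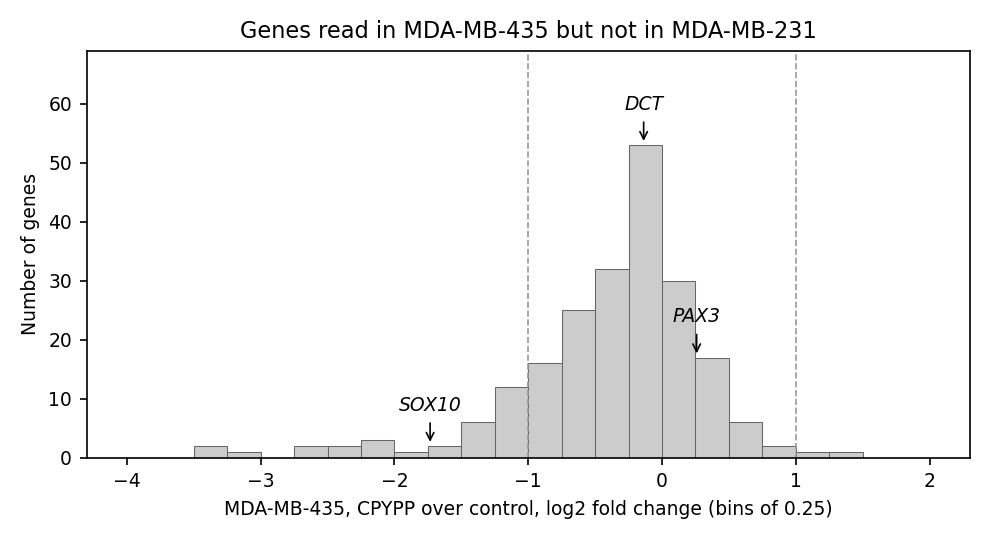
Number of genes by log2 fold change of CPYPP over control in MDA-MB-435, in bins of 0.25, for the 214 genes with 3 counts or fewer in both MDA-MB-231 libraries and at least 100 counts in the MDA-MB-435 control. Arrows mark SOX10, DCT and PAX3 and dashed lines a 2-fold change. SOX10 stood in the left tail, DCT in the tallest bin and PAX3 to its right.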

How the data were processed

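Poly(A) RNA of both cell lines was sequenced in 4 libraries, and the authors deposited the raw counts of each gene, not normalized. The submitters' processing notes name cutadapt 1.9.1, HISAT2 2.2.1, HTSeq 0.6.1, DESeq2 and the build GRCh37.p13. The positions in the table, however, overlapped those of GENCODE v29 (GRCh38) for 58204 of 58254 shared identifiers, and are given as GRCh38. The strand setting of the counting is not given in the sources used here.

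Genes with at least 10 counts in either library of a comparison were tested in R 4.3.3 with edgeR 4.0.16 (TMM, exact binomial test, Benjamini-Hochberg adjustment over all genes tested). For the call, any count under 3 was raised to 3. The effect of the line, with treatment as a term, was fitted by edgeR's quasi-likelihood method in all 4 libraries after its expression filter, with DESeq2 and a fit without treatment as alternatives. With 10 counts an interval spans several-fold, and intervals cover counting error only. TPM were computed in Python 3.11.15 from counts and deposited exon lengths. Promoter sequences came from RefSeq (GRCh38.p14). The calling procedure was tested on simulated data. DESeq2 1.42.0 size factors, other scalings, filters, thresholds and assumed coefficients of variation were alternatives.

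The members and wider lists were chosen with earlier results of these data known, and the lists come from general knowledge of the lineage. All 10 members were named, with the genes that overlap them, from each list the called genes of MDA-MB-435 (at most 4 in each direction) and the 3 with the highest TPM in its control library, and the 5 genes most like SOX10. In addition KIT, KITLG, SOX9, TFEB, TFEC and ALX4, and values of listed genes in MDA-MB-231, were picked after their values were seen. One gene that this rule names is not reported here.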

Additional observations from a re-analysis of the deposited data

Results flagged for a closer look

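CCN2, a gene of the list known from melanomas with little MITF, moved in opposite directions in the 2 lines. Its log2 fold change with CPYPP was -1.39 in MDA-MB-435, from 1001 to 296 counts, and 1.84 in MDA-MB-231, from 4043 to 10575 counts. The difference between the lines was not tested, since each line had 1 library per condition.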

How the results depend on the processing

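The 4 libraries carry no replicate numbers, so no fit with a replicate block was made, and leaving out a library would leave a condition without reads. The lines served as blocks in the common fit, in which PMEL had a log2 fold change of -0.31, against 0.22 in MDA-MB-231 alone. A fold change over 4 gave 140 genes higher and 237 lower in MDA-MB-435, 220 and 96 in MDA-MB-231, and 2083 and 2123 between the control libraries. An assumed coefficient of variation of 0.2 gave 124 and 147 in MDA-MB-435 and 113 and 43 in MDA-MB-231. At 0.4 these were 13 and 1 in MDA-MB-435, 4 and 0 in MDA-MB-231, and 1462 and 1588 between the lines. A minimum of 10 counts in both libraries gave 602 lower in MDA-MB-435, 457 higher and 271 lower in the MDA-MB-231 libraries, and 2202 and 2046 between the lines, since a gene read in 1 library alone is then not tested. A fold change over 2 without a test gave 893 lower in MDA-MB-231. Of the 10 lineage genes, the 2 lower in MDA-MB-435 became 0 at a fold over 4 and at 0.4, and 1 (SOX10) at 0.2. The 1 lower in MDA-MB-231 became 0 under these 3 settings. Between the control libraries, the 4 higher became 1 with the minimum in both libraries, and the 1 lower became 0 at a fold over 4 and at 0.4. The log2 difference of the SOX10 level between the control libraries was 10.1 with 0.1 added to TPM, 8.04 with FPKM and 6.78 with 1 added to TPM, by the construction of these scales. At an assumed 0.2, SOX10, POU3F2, FOXD3 and TFAP2C in MDA-MB-435 and CCN2 and LURAP1L-AS1 in MDA-MB-231 were the named genes still past the thresholds, and at 0.4 no named gene was in either line by edgeR's exact test. Over the lineage genes and the called genes of the wider lists, 343 values kept their direction and side of the thresholds, 62 lost a call, 5 gained one and 1, PMEL, changed its sign. Filters, thresholds and assumed variation leave a fold change as it is, so only the scalings and the common fit could turn a direction.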
